A study of Mus musculus with 16 samples.

Results

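The genes of cytochrome P450 family 2 (CYP2) were taken as all rows of the count tables whose symbol is Cyp2 followed by a single letter and a number, such as Cyp2b10, Cyp2f2 or Cyp2j9. The rule uses symbols alone and no measured value. It found 48 genes in 13 subfamilies among the 23282 rows. Messenger RNA was measured in the dorsal skin of 16 male wild-type C57BL/6N mice, bought at 3 weeks of age and given 1 week to adapt, with 4 mice per group and 1 library per mouse. Cont mice ate normal chow. LowAhR mice ate a purified diet low in ligands of the aryl hydrocarbon receptor (AhR) for 12 weeks and, per the methods of the study, were housed on paper bedding free of such ligands, so the diet and the bedding cannot be told apart. LowAhR+AD mice ate that diet too, and after 2 weeks of it their dorsal skin was painted 2 times a week with 1% DNCB in acetone and olive oil, a hapten used to induce atopic dermatitis (AD). LowAhR+AD+BJ mice had the diet and DNCB and were also given BJIKT (Bojungikgi-tang), a water extract of a herbal formula, by mouth at 1 g/kg per day. The methods of the study place BJIKT at the same time as DNCB, while its results describe DNCB first and then BJIKT. The words after BJIKT below stand for LowAhR+AD+BJ compared with LowAhR+AD. Groups with DNCB on normal chow or with BJIKT in the absence of DNCB were not analysed here, so an effect of DNCB cannot be told apart from an effect that DNCB has only on this diet. The methods of the study state no painting with solvent alone and no dosing with water for the other groups. DNCB therefore cannot be told apart from its solvent and the painting, nor BJIKT from the dosing by mouth.

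CYP2 enzymes are haem proteins of the endoplasmic reticulum that insert oxygen into their substrates with electrons from P450 reductase. Many members are known as drug- and toxicant-metabolizing enzymes of the liver, where nuclear receptors such as CAR and PXR control them, while others oxidize arachidonic acid and other fatty acids or activate vitamin D. In skin, Cyp2b19 is known as an arachidonic acid epoxygenase of differentiating keratinocytes, and Cyp2s1 as a P450 of surface epithelia that AhR ligands can induce.

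The libraries held 7080508 to 13467477 counts, and both groups with DNCB had higher totals than both groups without it, with no overlap. Levels are given in CPM, the counts of a gene per 1000000 counts of its library after TMM scaling. In the QuantSeq protocol each messenger RNA gives about 1 fragment from its 3' end whatever its length, so CPM values are per transcript and were compared between genes on that scale. Where a library had 0 counts of a gene, the floor used in bounds was 3 counts, which covers counting error only. LowAhR+AD replicate 1 stood apart: of the rows for which the other replicates of its group predicted 20 to 40 counts, 32.6% were at 0 in it, against at most 13.8% in any other library, so the main counts, and the changes it moved most, are also given without it. All 6 basal and all 8 differentiated keratinocyte markers were detected in every group, in keeping with skin. In bulk skin, fewer cells of a type and less RNA per cell cannot be told apart.

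Detection split the family by subfamily. Of the 48 genes, 12 were never counted, 20 were counted too rarely to be tested, and 16 passed the filter on low counts, 33.3% against 63.8% of all rows. These 16 held 99.8% of the 78086 CYP2 counts. The CYP2C subfamily, with 15 genes the largest, had 83 counts in all and 0 genes that could be tested. In the CYP2A subfamily 0 of 4 genes could be tested and in CYP2D 1 of 9, whereas all 5 CYP2B and 4 of 7 CYP2J genes passed, as did the lone members of CYP2E, CYP2F, CYP2G, CYP2R, CYP2S and CYP2T. Cyp2u1, a fatty acid hydroxylase, had 4 counts, and Cyp2w1 had 0.

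The never counted genes were Cyp2a22, Cyp2c55, Cyp2c65, Cyp2c66, Cyp2c67, Cyp2c69, Cyp2c70, Cyp2d11, Cyp2d40, Cyp2j5, Cyp2j11 and Cyp2w1. Of the 20 counted but untested genes, 14 had counts in 1 library only, and all 20 together had 129 counts. The highest was Cyp2c44 (Cyp2c23 in RefSeq), an arachidonic acid epoxygenase of liver and kidney, with 49 counts in 5 libraries: 22 in LowAhR replicate 3, 7 in LowAhR replicate 4, 7 and 10 in LowAhR+AD replicates 2 and 4, and 3 in LowAhR+AD+BJ replicate 3. Next came Cyp2c29, an abundant liver gene, with 22 counts, all in Cont replicate 1. The coumarin hydroxylase Cyp2a5 had 9 counts and the steroid hydroxylase Cyp2a4 had 3, all in Cont replicate 4. Cyp2d10 had 9 counts in LowAhR+AD replicate 4 and 1 in Cont replicate 1, and Cyp2d26 had 8 in 3 libraries. The remaining ones, Cyp2a12, Cyp2c37, Cyp2c38, Cyp2c39, Cyp2c40, Cyp2c50, Cyp2c54, Cyp2c68, Cyp2d9, Cyp2d12, Cyp2d13, Cyp2d34, Cyp2j13 and Cyp2u1, had between 1 and 5 counts each. With so few counts, a difference between groups was not detectable at this depth. A library had counts in 11 to 21 of the 48 genes, the fewest in LowAhR+AD replicate 1 and the most in Cont replicate 1, the library with the smallest total. The liver markers were low, at 0 to 34.3 CPM for the sum of 9 genes per library. Their highest sum was in Cont replicate 1, the library that held all Cyp2c29 counts. The 3 markers of airway club cells, the site best known for Cyp2f2, summed to 0.410 to 26.4 CPM. In Cont, LowAhR and LowAhR+AD+BJ the club cell sum was Scgb1a1 alone, as Scgb3a2 and Sftpd were at 0 there. Scgb3a2 was at 0 in LowAhR+AD too. Of the liver markers, only Fga was at 0 in all 16 libraries, and the others were counted in some.

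The tested genes lie mostly in 2 clusters of the mouse genome (GRCm38). On chromosome 7, Cyp2s1 (chr7:25802475-25816913) and Cyp2t4 (chr7:27153714-27158668) are the outer tested members of a cluster that also holds the CYP2A and CYP2B genes, Cyp2g1 (chr7:26808892-26821205) and Cyp2f2 (chr7:27119909-27133660). Cyp2r1 (chr7:114549682-114562972) and Cyp2e1 (chr7:140763739-140774987) stand alone on the same chromosome. The CYP2J genes lie side by side on chromosome 4, among them Cyp2j6 (chr4:96516138-96553661) and Cyp2j9 (chr4:96568429-96591578), and Cyp2d22 is on chromosome 15. In the last 500 bases of the transcripts, where QuantSeq reads fall, 75-base stretches shared with another gene made up 2.11% of Cyp2b10 and of Cyp2b13, which share them with each other, 12.2% of Cyp2e1, which shares them with several unrelated genes, and 0% of the other tested genes. Exons of Cyp2t4 overlap Egln2 and exons of Cyp2f2 overlap Gm15883, both on the opposite strand, and those of Cyp2s1 overlap Gm26707 and Gm45226, also on the opposite strand. Exons of Cyp2b13 overlap the pseudogene Rnf170-ps on its own strand. How strand and multiply mapped reads were treated in the counting is not given in the sources used here, so the counts of these genes are uncertain to that extent.

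The upstream sequences of the genes that were lower with DNCB in one of the comparisons below are shown because GCGTG, the core that AhR and its partner ARNT bind, can be looked for in them. They are RefSeq sequences of GRCm38.p6, the 250 bases before the RefSeq start of the gene. Each is 5′ to 3′ on the strand of the gene, with each GCGTG on either strand in capitals. By GENCODE, the source of the positions above, the sequences of Cyp2f2, Cyp2j6, Cyp2j9 and Cyp2b10 run past the start into the gene. The last capital stretch of Cyp2b10 then lies inside the gene.
Cyp2f2 (chr7:27119705-27119954, plus strand): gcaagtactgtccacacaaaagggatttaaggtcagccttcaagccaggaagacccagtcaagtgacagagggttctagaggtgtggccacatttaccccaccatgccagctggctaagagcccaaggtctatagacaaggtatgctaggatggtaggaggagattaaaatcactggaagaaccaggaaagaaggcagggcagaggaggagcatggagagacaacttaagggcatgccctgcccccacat
Cyp2j6 (chr4:96553652-96553901, minus strand): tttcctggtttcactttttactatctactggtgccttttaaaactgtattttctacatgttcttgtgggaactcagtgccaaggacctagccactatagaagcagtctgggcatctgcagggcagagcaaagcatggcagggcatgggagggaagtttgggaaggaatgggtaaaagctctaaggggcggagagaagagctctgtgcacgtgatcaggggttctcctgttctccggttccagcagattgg
Cyp2j9 (chr4:96591486-96591735, minus strand): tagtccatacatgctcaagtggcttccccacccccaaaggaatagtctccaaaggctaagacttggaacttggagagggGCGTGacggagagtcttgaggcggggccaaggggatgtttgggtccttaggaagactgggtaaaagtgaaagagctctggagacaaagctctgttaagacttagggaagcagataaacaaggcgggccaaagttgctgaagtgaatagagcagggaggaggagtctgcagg
Cyp2r1 (chr7:114562973-114563222, minus strand): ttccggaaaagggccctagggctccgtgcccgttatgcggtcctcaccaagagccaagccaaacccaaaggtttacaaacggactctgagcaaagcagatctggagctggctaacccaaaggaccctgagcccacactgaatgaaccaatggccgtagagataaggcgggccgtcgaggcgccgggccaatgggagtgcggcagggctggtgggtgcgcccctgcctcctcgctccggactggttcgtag
Cyp2b10 (chr7:25897408-25897657, plus strand): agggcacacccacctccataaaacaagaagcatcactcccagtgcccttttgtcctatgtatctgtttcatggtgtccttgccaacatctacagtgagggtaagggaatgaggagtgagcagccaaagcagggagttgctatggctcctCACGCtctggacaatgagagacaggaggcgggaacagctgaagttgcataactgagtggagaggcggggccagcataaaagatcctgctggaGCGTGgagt
Over the window from 250 bases before to 50 after the RefSeq start, from which distances are counted, 14 of the 16 tested genes had a RefSeq sequence, and Cyp2d22 and Cyp2g1 did not. GCGTG stood in 4 of the 14: 171 bases before the start of Cyp2j9, 101 and 9 before that of Cyp2b10, 50 before that of Cyp2j12, and 40 after that of Cyp2r1. It stood in 32.4% of all 32851 promoter windows of this length, close to the share here, and the matches are letters in a window, not measured binding. TATAAA, the TATA box, stood in Cyp2e1 only, against 13.6% of all windows, and TGANTCA, the AP-1 motif, in 0 of the 14 against 7.81%. No motif overlapped another.

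The summed level of the CYP2 genes was 775 to 1314 CPM in the Cont libraries, 308 to 873 CPM in LowAhR, 183 to 336 CPM in LowAhR+AD and 285 to 409 CPM in LowAhR+AD+BJ. The Cont and LowAhR ranges overlapped, as did those of both groups with DNCB, and every Cont library lay above every library with DNCB. Cyp2f2 alone made up 56.1% ± 7.36 of the CYP2 counts in Cont (SD, n = 4), 37.1% ± 8.48 in LowAhR, 10.6% ± 5.91 in LowAhR+AD and 19.1% ± 8.11 in LowAhR+AD+BJ. Cyp2g1 went the other way, from 0.751% ± 0.701 in Cont and 0.364% ± 0.467 in LowAhR to 18.9% ± 12.5 in LowAhR+AD and 13.8% ± 8.64 in LowAhR+AD+BJ. The CYP2B sum was 63.0 to 250.3 CPM in the libraries without DNCB and 74.6 to 151 CPM in those with it, and the CYP2J sum was 62.4 to 186 and 17.3 to 97.3 CPM.

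**Figure D1:**
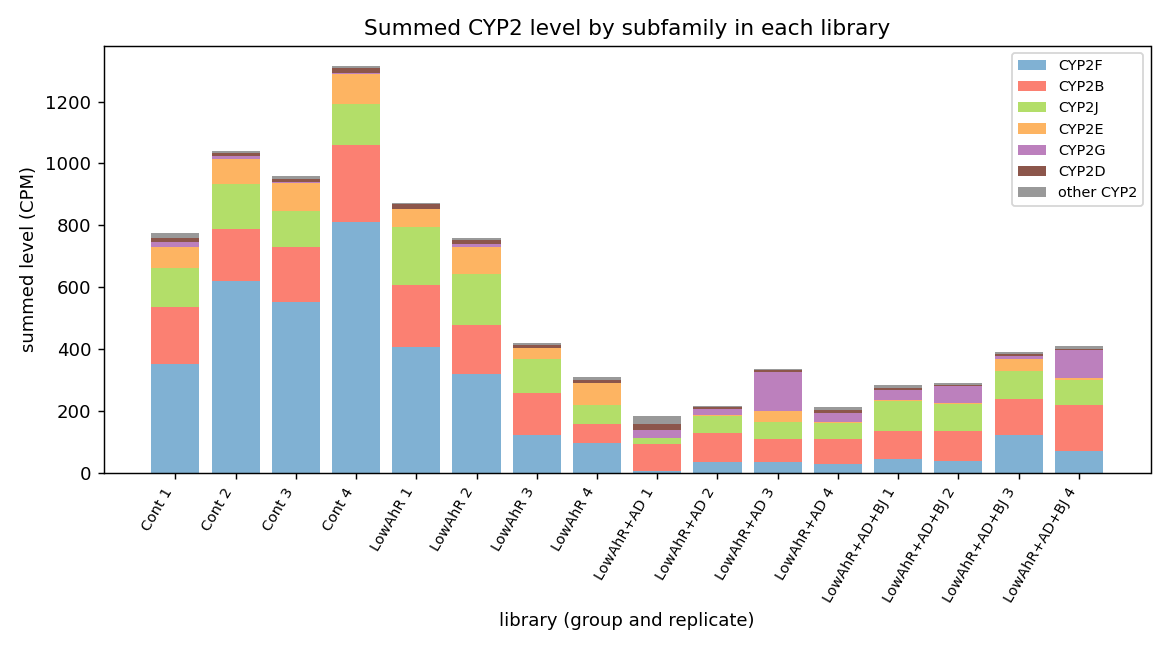
Stacked bars give the summed CPM of the CYP2 genes in each of the 16 libraries, coloured by subfamily, from 0 on a linear axis. The CYP2F part (Cyp2f2 alone) is the largest part of each Cont bar, and the CYP2G part (Cyp2g1 alone) is visible mainly in the libraries with DNCB, most in LowAhR+AD replicate 3.

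In edgeR's quasi-likelihood test with Benjamini-Hochberg adjustment over all 14854 tested rows, 6 of the 16 CYP2 genes differed among the 4 groups (Cyp2b19, Cyp2f2, Cyp2g1, Cyp2j6, Cyp2j9 and Cyp2r1), against 23% of all rows. From LowAhR to LowAhR+AD, which asks what DNCB did on the diet, 5 of the 16 changed against 12.6% of all rows: Cyp2f2, Cyp2j6, Cyp2j9 and Cyp2r1 fell (4 of 16, against 6.21% of rows) and Cyp2g1 rose (1 of 16, against 6.42%). Between LowAhR+AD and Cont 6 differed, against 21.8% of all rows, the same 5 and Cyp2b10, with 5 lower (9.47% of rows) and 1 higher (12.3%), and 8 had an unadjusted p under 0.05, as did 34.1% of rows. Between LowAhR and Cont 0 of 16 passed with edgeR, where 0% of all rows passed. There 2 genes had an unadjusted p under 0.05, as did 13.7% of rows, while DESeq2 called 1, Cyp2b19, and 3.32% of rows. DESeq2 gave 7 of the 16 no adjusted p there, and 2 in LowAhR+AD+BJ against LowAhR. Its shares count rows without an adjusted p as not called. Between LowAhR+AD+BJ and LowAhR+AD, which asks what BJIKT did in the dermatitis, 0 of 16 passed with edgeR, against 0% of all rows, and 4 had an unadjusted p under 0.05, while DESeq2 called 1, Cyp2r1, and 0.114% of rows. Between LowAhR+AD+BJ and LowAhR 1 passed, Cyp2g1, higher, against 6.77% of all rows, of which 3.64% were higher and 3.12% lower. Libraries of both groups did not overlap, from LowAhR to LowAhR+AD, for 1 gene that was higher (8.92% of rows) and 2 that were lower (9.85%), and in LowAhR+AD against Cont for 1 that was higher (12.9%) and 6 that were lower (11.8%). In LowAhR against Cont 0 were higher without overlap (5.68%) and 1 lower, after BJIKT 3 were higher and 0 lower (2.65%), and in LowAhR+AD+BJ against LowAhR 1 was higher (8.91%) and 1 lower. The comparisons share groups, so they are not independent of each other.

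The median log2 fold change of the 16 genes was -0.86 from LowAhR to LowAhR+AD, beside 0.04 over all tested rows, with 12 of 16 lower. It was -1.26 in LowAhR+AD against Cont (13 of 16 lower, all rows 0.05), -0.33 in LowAhR against Cont (13 of 16 lower, all rows 0.03), 0.69 in LowAhR+AD+BJ against LowAhR+AD (10 of 16 higher, all rows -2.4e-04) and -0.13 in LowAhR+AD+BJ against LowAhR. These medians were the same with Cyp2r1, which was at 0 in LowAhR+AD, set to its bound. Genes that passed the filter through the groups where they were high, such as Cyp2r1, had to differ. The calls, the counts without overlap and the medians therefore describe only the genes tested. Without LowAhR+AD replicate 1 the calls were 5 of 15 against LowAhR, the same genes (11.4% of rows), and 7 of 15 against Cont, with Cyp2b19 added (23.2% of rows), while 0 of 15 passed after BJIKT (0% of rows). Among the 4 groups, 8 of 15 then differed, with Cyp2d22 and Cyp2e1 added (26.2% of rows).

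**Figure D2:**
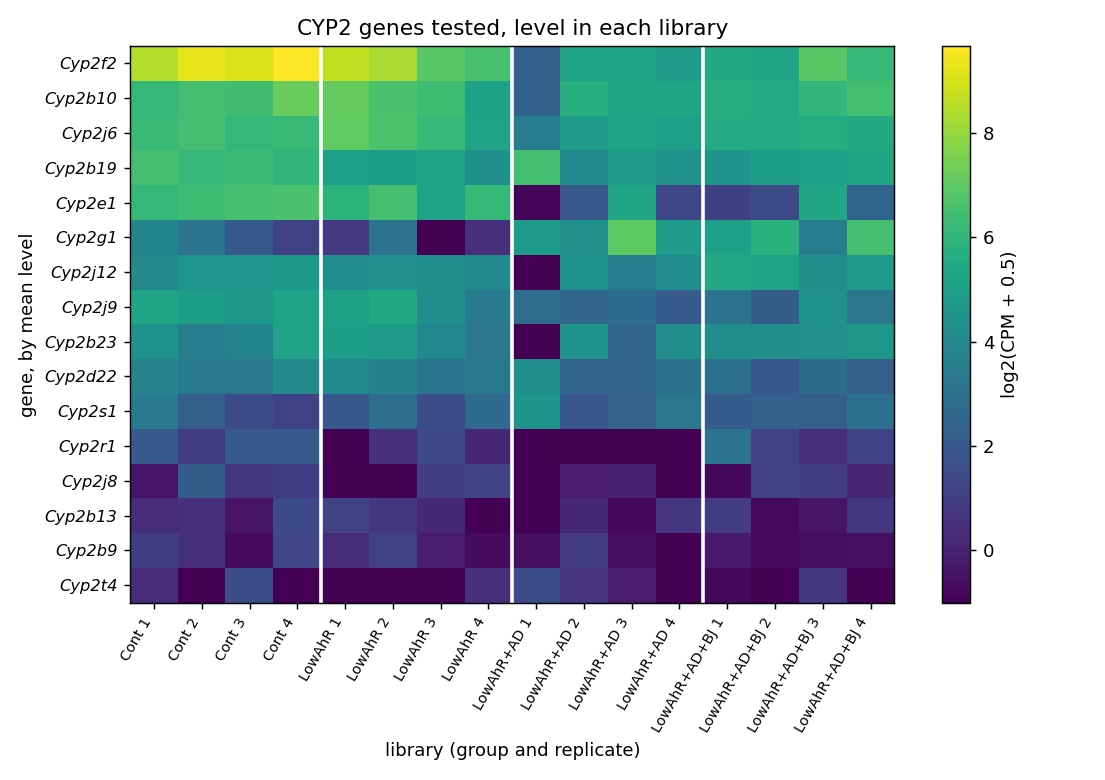
Each row is one of the 16 tested CYP2 genes, ordered by mean level, each column a library, and colour gives log2(CPM + 0.5). White lines part the 4 groups. Cyp2f2 is the brightest row in Cont and dims with DNCB, the Cyp2g1 row brightens with it, and LowAhR+AD replicate 1 differs from the rest of its group in several rows.

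Cyp2f2, known for activating naphthalene and other inhaled toxicants in the airway, was the most abundant CYP2 transcript of control skin. Its level was 351, 620, 554 and 809 CPM in the Cont libraries 1 to 4 and 405, 320.5, 122 and 94.99 CPM in LowAhR. With DNCB it was 4.50, 35.1, 35.4 and 28.1 CPM, and with BJIKT in addition 43.4, 38.5, 122 and 69.3 CPM. Every LowAhR+AD library lay under every library of the other groups, and 3 of the 4 LowAhR libraries lay under all of Cont. From LowAhR to LowAhR+AD, Cyp2f2 fell 9.14-fold, a log2 fold change of -3.19 ± 0.59 SE with an edgeR adjusted p of 0.00248. Against Cont the fall was 22.6-fold (log2 fold change -4.50 ± 0.62 SE, adjusted p = 0.000192 from edgeR). The change of -1.31 ± 0.55 from Cont to LowAhR did not pass (adjusted p = 0.281 from edgeR, exact permutation p = 0.0571), nor did that of 1.40 ± 0.55 after BJIKT (adjusted p = 0.5005), although the groups did not overlap there (exact permutation p = 0.0286, the smallest possible with 4 against 4). LowAhR+AD+BJ had 3.45-fold less Cyp2f2 than LowAhR with an adjusted p of 0.0590 from edgeR, and 0.00612 with DESeq2.

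The CYP2J genes encode epoxygenases and hydroxylases of fatty acids. Cyp2j6, the most abundant, was at 72.4, 89.3, 68.4 and 72.3 CPM in Cont, and at 133, 99.1, 69.9 and 34.4 CPM in LowAhR. In LowAhR+AD it was at 10.8, 28.3, 35.3 and 31.8 CPM, and in LowAhR+AD+BJ at 46.2, 46.7, 47.6 and 44.1 CPM. LowAhR+AD lay wholly under Cont and under LowAhR+AD+BJ, while LowAhR replicate 4 fell within its range. Cyp2j6 fell 3.17-fold from LowAhR (log2 fold change -1.66 ± 0.35 SE, adjusted p = 0.00593 from edgeR) and 2.85-fold from Cont (adjusted p = 0.00581). When LowAhR and LowAhR+AD were modelled with no other group, Cyp2j6 changed by -1.67 with an edgeR adjusted p of 0.0573. After BJIKT, Cyp2j6 had a log2 fold change of 0.80 ± 0.35 (edgeR adjusted p = 0.507).

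Cyp2j9 was at 38.9, 30.2, 24.8 and 34.4 CPM in Cont and at 34.0, 43.6, 19.4 and 10.1 CPM in LowAhR. In LowAhR+AD its libraries stood close together, at 6.49, 5.25, 6.06 and 3.61 CPM, under every library without DNCB. In LowAhR+AD+BJ, Cyp2j9 was at 7.85, 3.97, 22.0 and 8.98 CPM, and replicate 2 kept the groups from separating. The fall from LowAhR was 4.99-fold (log2 fold change -2.32 ± 0.48 SE, adjusted p = 0.00523 from edgeR) and that from Cont 5.98-fold (adjusted p = 0.00143). After BJIKT, Cyp2j9 had a log2 fold change of 1.00 ± 0.47 (edgeR adjusted p = 0.525, exact permutation p = 0.229).

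The other CYP2J genes did not pass in any comparison. Cyp2j12 was at 21.9 ± 4.08 CPM in Cont, 18.5 ± 1.89 in LowAhR, 12.4 ± 9.39 in LowAhR+AD and 31.4 ± 10.6 in LowAhR+AD+BJ (SD, n = 4). It had 0 counts in LowAhR+AD replicate 1 against 136 to 258 in the other replicates of that group, and the largest of its changes, 1.34 ± 0.71 after BJIKT, had an adjusted p of 0.556 from edgeR and was 0.92 without that library. Cyp2j8 reached at most 30 counts in a library and stood at 1.64 ± 1.56, 0.805 ± 0.941, 0.219 ± 0.254 and 0.912 ± 0.695 CPM in the same order of groups. Thus Cyp2j6 and Cyp2j9 differed in LowAhR+AD while for their neighbours Cyp2j8 and Cyp2j12 no difference was detectable beyond the spread, and whether the changes of these genes differ from each other was not tested.

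Cyp2r1, a vitamin D 25-hydroxylase, was a gene of low counts. It passed the filter through Cont and LowAhR+AD+BJ, the groups where it was high. A gene kept in this way had to be high in some groups, so its tests against LowAhR+AD are no separate support for a difference. The Cont libraries had 29, 10, 30 and 31 counts of it, LowAhR 0, 7, 16 and 5, and LowAhR+AD 0 in all 4. The LowAhR+AD+BJ libraries had 85, 16, 11 and 17 counts. So Cyp2r1 was counted in every library of Cont and LowAhR+AD+BJ and in none of LowAhR+AD, which are the deeper libraries, and LowAhR replicate 1 at 0 kept LowAhR and LowAhR+AD from separating (exact permutation p = 0.143). On the CPM scale, with a floor of 3 counts per library, LowAhR+AD was at least 13.1-fold lower than Cont (adjusted p = 0.00328 from edgeR) and at least 3.77-fold lower than LowAhR (adjusted p = 0.0185). The bound against LowAhR leaned on LowAhR replicate 3, at 2.08 CPM against 0 to 0.896 CPM in the others, and without it Cyp2r1 was at least 2.10-fold lower (edgeR adjusted p = 0.0479). LowAhR+AD+BJ was at least 12.6-fold higher than LowAhR+AD, with an adjusted p of 0.304 from edgeR and 0.000440 from DESeq2 (exact permutation p = 0.0286), and the bound rests in part on replicate 1 at 7.76 CPM, against 0.856 to 1.71 CPM in the other replicates, and is 5.90-fold without it. The change from Cont to LowAhR was -1.78 ± 1.16 on the log2 scale (adjusted p = 0.550 from edgeR).

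Of the other vitamin D genes, Cyp27a1, a mitochondrial sterol hydroxylase that can also 25-hydroxylate vitamin D, fell from LowAhR to LowAhR+AD, from a mean of 44.8 to 12.9 CPM (log2 fold change -1.79 ± 0.31 SE, adjusted p = 0.00188 from edgeR). Vdr, the vitamin D receptor, rose from 35.3 to 168 CPM (log2 fold change 2.25 ± 0.35, adjusted p = 0.000848 from edgeR). These were the called ones among the 3 genes of this list that could be tested, of 5 listed. Both were called the same way against Cont. Over all rows, 12.6% were called from LowAhR to LowAhR+AD, 21.8% in LowAhR+AD against Cont and 6.77% in LowAhR+AD+BJ against LowAhR. In LowAhR+AD+BJ against LowAhR, Cyp27a1 was lower by 1.09 on the log2 scale and Vdr higher by 1.35 (adjusted p = 0.0391 and 0.0230 from edgeR).

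Cyp2g1, best known as a P450 of the olfactory mucosa, was the CYP2 gene called higher with DNCB. It was at 13.4, 8.14, 3.58 and 1.68 CPM in Cont and at 1.22, 7.94, 0 and 0.835 CPM in LowAhR. In LowAhR+AD it was at 27.3, 20.3, 125 and 29.6 CPM, and in LowAhR+AD+BJ at 31.8, 54.8, 11.05 and 90.8 CPM. Every LowAhR+AD library lay above every library without DNCB, and LowAhR+AD+BJ lay above LowAhR but its replicate 3 did not reach the highest Cont library. The rise from LowAhR was 20.2-fold to LowAhR+AD (log2 fold change 4.34 ± 0.99 SE, adjusted p = 0.00887 from edgeR) and 18.8-fold to LowAhR+AD+BJ (adjusted p = 0.0146). The rise to LowAhR+AD was 3.36 on the log2 scale without LowAhR+AD replicate 3 and 6.19 without LowAhR replicate 2, the highest of their groups (adjusted p of Cyp2g1 0.0241 and 0.00354 from edgeR). Without LowAhR replicate 2 the rise to LowAhR+AD+BJ was 6.08 (adjusted p = 0.00721). That from Cont to LowAhR+AD was 7.58-fold (log2 fold change 2.92 ± 0.91 SE, edgeR adjusted p = 0.0281), and without LowAhR+AD replicate 3 it was 1.95 on the log2 scale with an adjusted p of 0.127. Without Cont replicate 1 it was 3.51 (edgeR adjusted p = 0.0281). That call of Cyp2g1 was also lost without Cont replicate 2, 3 or 4, at edgeR adjusted p-values of 0.0590, 0.0771 and 0.0767. Without LowAhR replicate 1 or LowAhR+AD+BJ replicate 4, the call against LowAhR after BJIKT was lost (adjusted p of Cyp2g1 0.0524 and 0.0541 from edgeR). Between both groups with DNCB Cyp2g1 differed by -0.11 ± 0.83 on the log2 scale (adjusted p = 0.976 from edgeR).

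**Figure D3:**
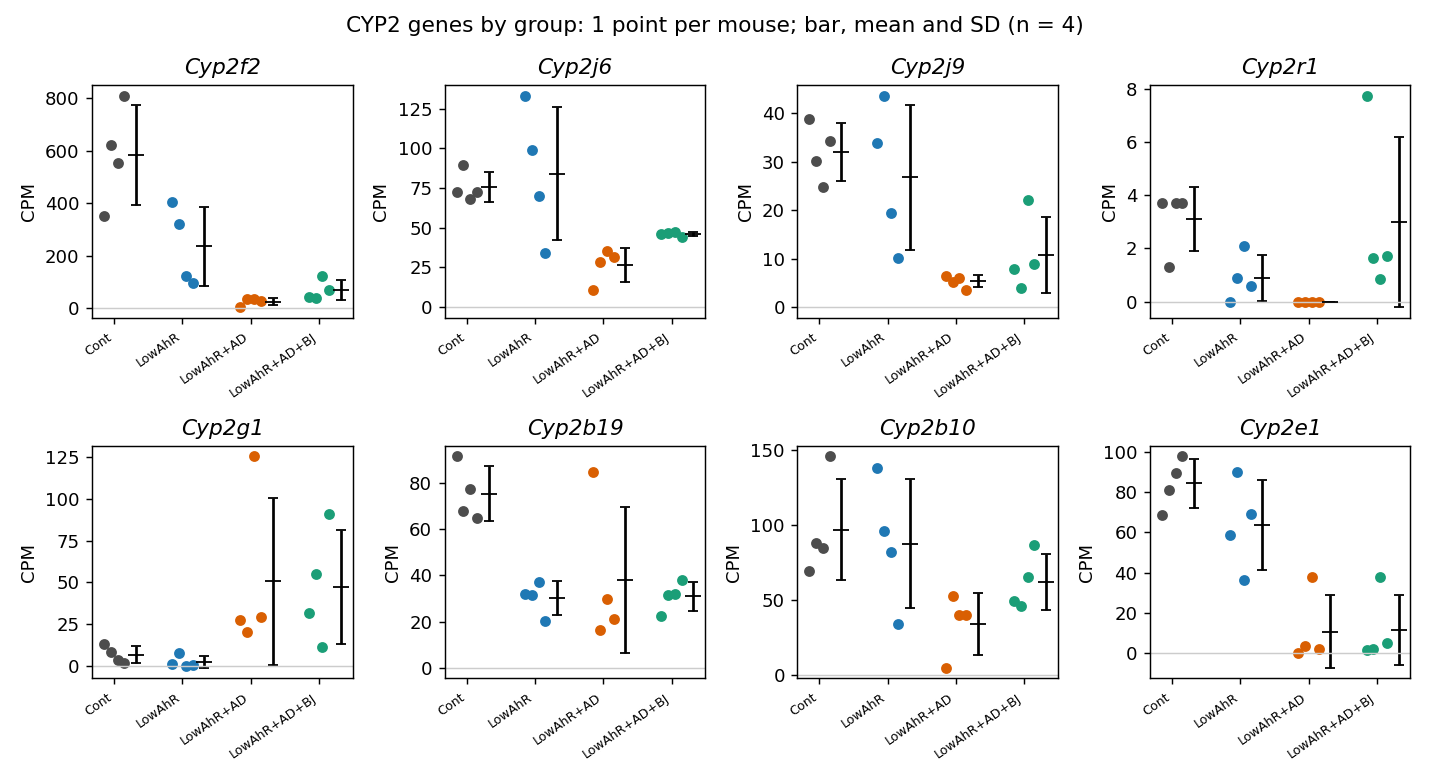
Each panel gives the CPM of one CYP2 gene by group on a linear axis, with 1 point per mouse and beside it the mean and SD (n = 4); the panels have their own scales. Cyp2f2, Cyp2j6 and Cyp2j9 are lowest in LowAhR+AD, Cyp2r1 is at 0 in all 4 of its libraries, Cyp2g1 is higher in both groups with DNCB, and Cyp2b19 is highest in Cont apart from 1 LowAhR+AD library.

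In the CYP2B subfamily the keratinocyte epoxygenase Cyp2b19 was the gene whose Cont and LowAhR libraries did not overlap, though edgeR did not call it. Cyp2b19 was at 91.5, 67.8, 77.2 and 65.0 CPM in Cont and at 31.9, 31.4, 37.3 and 20.2 CPM in LowAhR. It was the 1 of 16 tested CYP2 genes lower without overlap there, close to the share of 5.63% of all rows. In LowAhR+AD it was at 84.9, 16.5, 29.6 and 21.0 CPM, the first of these being the library that stood apart, and in LowAhR+AD+BJ at 22.6, 31.4, 31.9 and 37.9 CPM. All LowAhR+AD+BJ libraries, and all LowAhR+AD libraries but that one, lay under every Cont library. The change from Cont to LowAhR was 2.50-fold (log2 fold change -1.32 ± 0.39 SE, exact permutation p = 0.0286), with an adjusted p of 0.123 from edgeR, 0.0306 from DESeq2 and 0.0237 from edgeR in a model of only those 8 libraries. In LowAhR+AD against Cont Cyp2b19 changed by -0.99 ± 0.39 (adjusted p = 0.0775 from edgeR), and without LowAhR+AD replicate 1 by -1.77 (adjusted p = 0.000263). Between LowAhR+AD and LowAhR its change was 0.33 ± 0.39, and -0.44 without that library. The differentiated keratinocyte markers summed to 10792 to 13259 CPM in Cont, 4986 to 9666 in LowAhR and 537 to 11871 in LowAhR+AD, lowest in replicate 1, where Cyp2b19 was highest; the part of this cell type in the level of Cyp2b19 was not tested.

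Cyp2b10, the classic CAR-induced P450 of mouse liver, was at 69.1, 87.9, 84.5 and 146 CPM in Cont, and at 138, 96.1, 82.2 and 33.8 CPM in LowAhR. In LowAhR+AD it was at 4.43, 52.6, 39.6 and 39.5 CPM, and in LowAhR+AD+BJ at 49.1, 45.5, 65.3 and 86.6 CPM. LowAhR+AD lay under all of Cont but not under all of LowAhR. Cyp2b10 was 2.85-fold lower in LowAhR+AD than in Cont (log2 fold change -1.51 ± 0.51 SE, adjusted p = 0.0435 from edgeR), a call that was lost on removal of any single Cont library or of LowAhR+AD replicate 3 or 4, with an adjusted p of up to 0.128 (without Cont replicate 4). Against LowAhR the change was -1.36 ± 0.51, with an adjusted p of 0.0877 from edgeR and 0.0325 from DESeq2, and without LowAhR replicate 4 Cyp2b10 changed by -1.63 (edgeR adjusted p = 0.0422). After BJIKT it changed by 0.86 ± 0.51 (adjusted p = 0.599), and by 0.48 without LowAhR+AD replicate 1.

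The remaining CYP2B genes passed in no comparison. Cyp2b23 was at 20.3 ± 10.9 CPM in Cont, 20.4 ± 10.1 in LowAhR, 11.5 ± 10.6 in LowAhR+AD and 20.7 ± 2.82 in LowAhR+AD+BJ (SD, n = 4), with 0 counts in LowAhR+AD replicate 1 and 66 to 268 in the others of that group. After BJIKT Cyp2b23 changed by 0.85 on the log2 scale, and by 0.43 with that library left out. Cyp2b9 and Cyp2b13, which differ between sexes in mouse liver, had at most 16 and 18 counts in a library. Group means were 0.206 to 1.09 CPM for Cyp2b9 and 0.465 to 1.02 CPM for Cyp2b13.

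Cyp2e1, the ethanol-oxidizing P450 of the liver, fell into high and low libraries. It was at 68.7, 81.1, 89.3 and 97.7 CPM in Cont and at 58.8, 89.9, 36.2 and 69.2 CPM in LowAhR. With DNCB it was at 0.0763, 3.45, 37.8 and 2.01 CPM in LowAhR+AD and at 1.55, 2.24, 37.6 and 4.94 CPM in LowAhR+AD+BJ. In each group with DNCB, 3 libraries lay under 5 CPM and replicate 3 lay at the level of LowAhR replicate 3. Cyp2e1 did not overlap between LowAhR+AD and Cont (log2 fold change -2.96 ± 1.07 SE, exact permutation p = 0.0286), with an adjusted p of 0.0555 from edgeR and 0.0412 from DESeq2. Without LowAhR+AD replicate 3 it was -5.51 (adjusted p = 0.00207 from edgeR). Against LowAhR the change was -2.55 ± 1.05 (adjusted p = 0.119 from edgeR), and -5.11 without that library (adjusted p = 0.00476). After BJIKT it was 0.11 ± 1.01, and -1.91 without LowAhR+AD+BJ replicate 3. Cyp2e1 is also transcribed in fat, and the 10 adipocyte markers summed to 3017 to 5910 CPM in Cont, 7645 to 12305 in LowAhR, 427 to 3999 in LowAhR+AD and 2644 to 3729 in LowAhR+AD+BJ. LowAhR+AD replicate 3, high in Cyp2e1, had 2437 CPM of these markers, less than replicates 2 and 4, which were low in Cyp2e1. Replicate 3 was also the lowest library of its group, in both groups with DNCB, in the summed basal keratinocyte (5575 and 4948 CPM), activated keratinocyte (11519 and 11098 CPM) and sebaceous gland markers (1184 and 1371 CPM). The differentiated keratinocyte markers summed to 11871 CPM in LowAhR+AD replicate 3, against 537 to 1896 CPM in the others of that group, and to 4380 CPM in LowAhR+AD+BJ replicate 3, against 611 to 4759 CPM. The muscle markers were lowest of the group in the former, at 414 CPM, and highest of the group in the latter, at 9400 CPM. The part of fat and of these compartments in the level of Cyp2e1 was not tested.

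**Figure D4:**
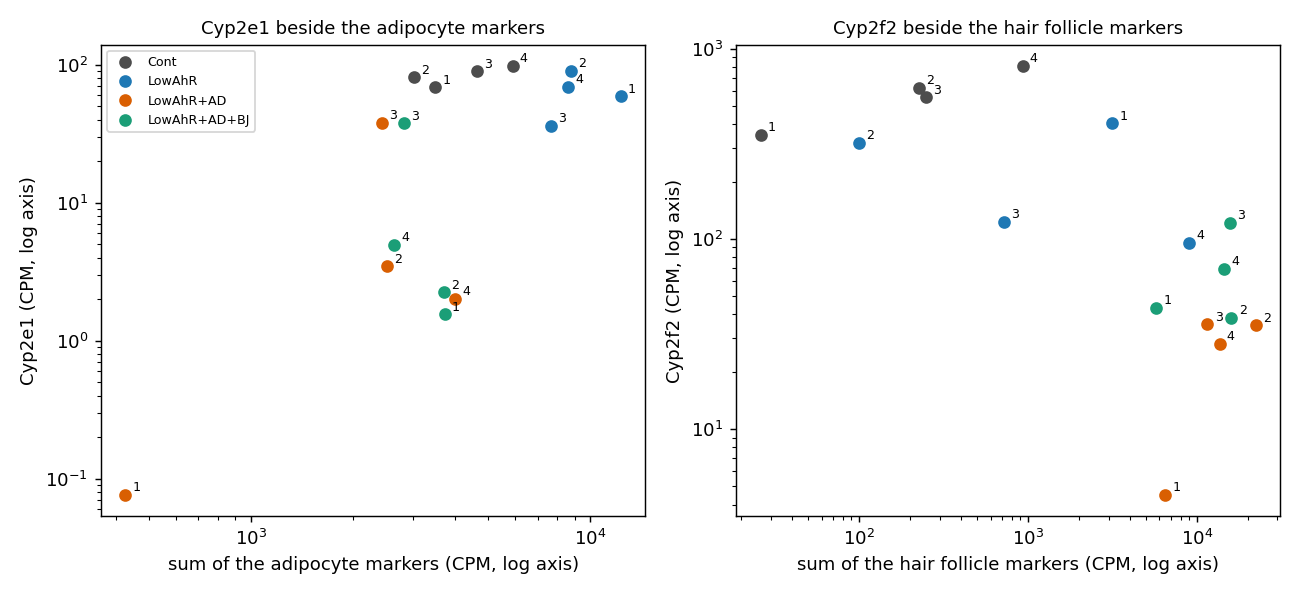
Each point is a library, numbered by replicate and coloured by group, on log axes. Left, Cyp2e1 against the sum of the adipocyte markers; replicate 3 of both groups with DNCB, at 37.8 and 37.6 CPM, sits above the other libraries with DNCB, which lie at or under 4.94 CPM. Right, Cyp2f2 against the sum of the hair follicle markers; the libraries with DNCB lie to the lower right, with LowAhR replicate 4 among them.

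Cyp2d22, the mouse gene often likened to human CYP2D6, was the only CYP2D gene with counts in all libraries. It was at 12.8, 9.95, 9.01 and 15.6 CPM in Cont, and at 16.4, 12.4, 8.33 and 9.43 CPM in LowAhR. In LowAhR+AD it was at 19.5, 4.84, 4.82 and 7.71 CPM, and in LowAhR+AD+BJ at 6.94, 3.36, 6.38 and 4.14 CPM. LowAhR+AD+BJ lay wholly under LowAhR, where 8.19% of all rows were lower without overlap. The log2 fold change of Cyp2d22 was -1.16 ± 0.47, with an adjusted p of 0.151 from edgeR (exact permutation p = 0.0286).

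Cyp2s1 was at 4.45 ± 3.69 CPM in Cont, 4.64 ± 2.09 in LowAhR, 9.76 ± 8.88 in LowAhR+AD and 4.82 ± 1.44 in LowAhR+AD+BJ (SD, n = 4). Its change from Cont to LowAhR was 0.07 ± 0.66 on the log2 scale (adjusted p = 0.982 from edgeR), which leaves room for a change of either sign. The highest library was LowAhR+AD replicate 1 at 22.6 CPM, and with that library left out Cyp2s1 changed by 0.23 on the log2 scale from LowAhR to LowAhR+AD, in place of 1.07 ± 0.66 (adjusted p = 0.869 and 0.310 from edgeR). Cyp2t4 was counted in 8 libraries, with at most 31 counts and group means of 0.209 to 0.955 CPM, and passed in no comparison.

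**Figure D5:**
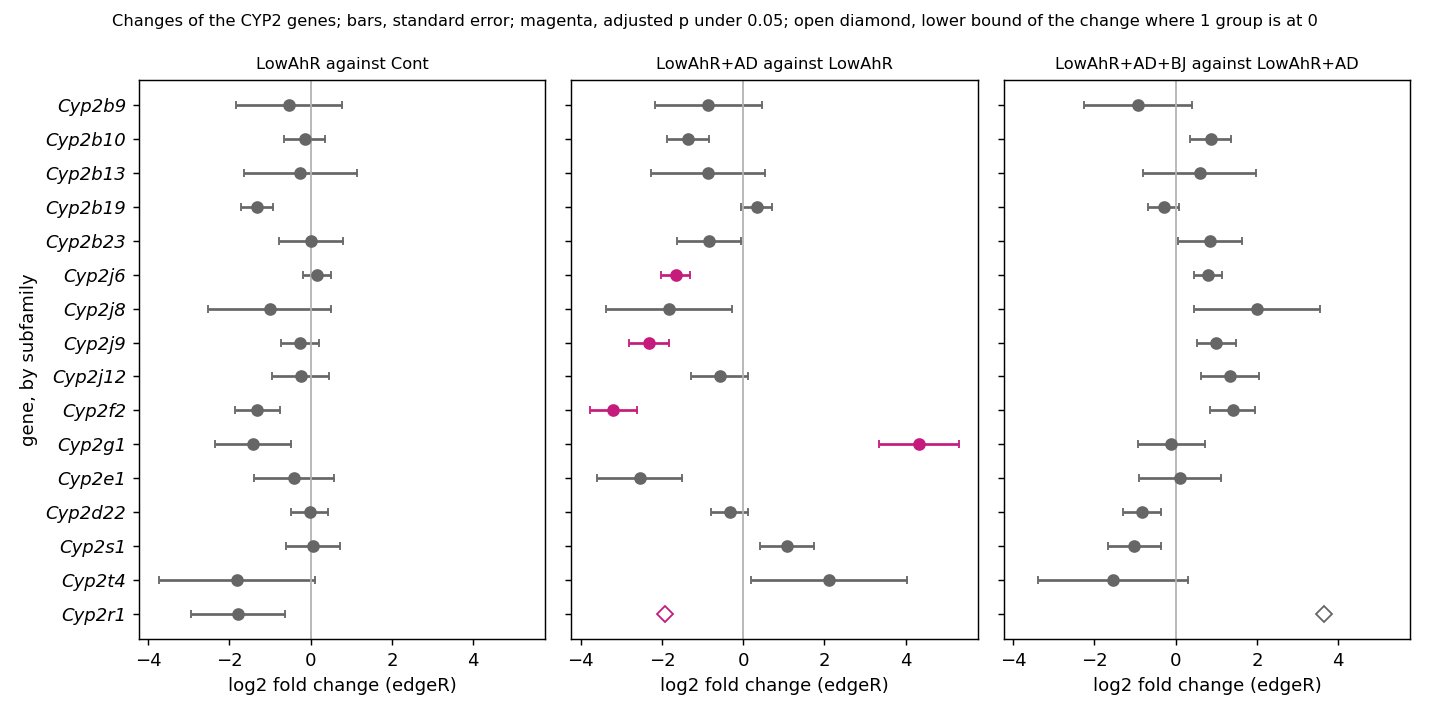
Points are edgeR log2 fold changes of the 16 tested CYP2 genes, with the standard error as bars, with LowAhR compared with Cont on the left, DNCB with the diet alone in the middle, and BJIKT with DNCB alone on the right. Magenta marks an adjusted p under 0.05, and open diamonds give the lower bound for Cyp2r1, which was at 0 in LowAhR+AD. Only the middle panel has called genes, Cyp2j6, Cyp2j9, Cyp2f2 and Cyp2r1 to the left and Cyp2g1 to the right.

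After BJIKT, Cyp2f2, Cyp2j6 and Cyp2r1 were higher in every LowAhR+AD+BJ library than in any LowAhR+AD library, 3 of 16 genes against 2.42% of all rows. Cyp2r1 had passed the filter through the groups where it was high, so its part in this count is no separate support. Cyp2f2, Cyp2j6, Cyp2r1 and Cyp2j9 were the genes at an unadjusted p under 0.05, as were 9.46% of all rows. The lowest adjusted p of the 16, that of Cyp2r1, was 0.304 from edgeR. This comparison and that of LowAhR+AD with LowAhR share the LowAhR+AD libraries and are not independent. Without LowAhR+AD replicate 1, the lowest of its group in Cyp2f2 and Cyp2j6, the changes after BJIKT were 1.04 and 0.53 on the log2 scale (adjusted p = 0.939 and 0.989 from edgeR) in place of 1.40 and 0.80. Against LowAhR, the LowAhR+AD+BJ libraries had log2 fold changes of -1.79 ± 0.55 in Cyp2f2, -1.32 ± 0.47 in Cyp2j9 and -0.87 ± 0.35 in Cyp2j6, with adjusted p-values of 0.0590, 0.0989 and 0.147 from edgeR.

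Of the listed genes that act with the CYP2 enzymes, 0 were called from LowAhR to LowAhR+AD. Calls fell in LowAhR+AD against Cont and in LowAhR+AD+BJ against LowAhR. Of all rows, 12.6% were called from LowAhR to LowAhR+AD, 21.8% in LowAhR+AD against Cont and 6.77% in LowAhR+AD+BJ against LowAhR. Of the 5 redox partners of microsomal P450, 0 passed from LowAhR to LowAhR+AD, and against Cont Cyb5a, cytochrome b5, was higher by 1.01 ± 0.34 on the log2 scale and Pgrmc1, a haem-binding partner of P450, lower by 0.93 ± 0.22 (adjusted p = 0.0389 and 0.00667 from edgeR). P450 reductase itself, Por, was at a mean of 96.4 CPM in Cont, 79.3 in LowAhR, 82.9 in LowAhR+AD and 57.8 in LowAhR+AD+BJ and passed in none. Of 7 nuclear receptors that control CYP2 genes 4 could be tested, with 0 calls from LowAhR to LowAhR+AD, and against Cont Rxrb was higher by 1.01 and Nr3c1, the glucocorticoid receptor, was lower by 1.35 (adjusted p = 0.0289 and 0.000485 from edgeR). Of the epoxide hydrolases, which open the epoxides that CYP2 enzymes make from fatty acids, 3 of 4 could be tested, and Ephx2 was lower in LowAhR+AD+BJ than in LowAhR (log2 fold change -1.08 ± 0.32, adjusted p = 0.0470 from edgeR).

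Lipoxygenases and cyclooxygenases changed in part. Of all rows, 6.21% were called lower and 6.42% higher from LowAhR to LowAhR+AD, and 9.47% lower and 12.3% higher in LowAhR+AD against Cont. Of 9 lipoxygenases and cyclooxygenases, 2 were called lower from LowAhR to LowAhR+AD and 0 higher. Ptgs1 (COX-1) fell from a mean of 85.5 to 18.7 CPM and Alox12e from 324 to 30.0 CPM (log2 fold changes -2.19 ± 0.27 and -3.43 ± 0.71, adjusted p = 0.000168 and 0.00491 from edgeR). Against Cont, Ptgs1, Alox12b, Alox12e and Aloxe3 were lower and Alox8 was higher. Of the 7 tested among AhR and its targets, 0 passed from Cont to LowAhR or from LowAhR to LowAhR+AD, and Ahr and Ahrr were lower in LowAhR+AD than in Cont (log2 fold changes -1.73 ± 0.38 and -3.17 ± 0.94, adjusted p = 0.00356 and 0.0217 from edgeR). Among the 18 tested P450 genes of other families 3 were called from LowAhR to LowAhR+AD, where 12.6% of all rows were, and 4 against Cont, where 21.8% were.

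Markers of several skin compartments moved with DNCB as well. Over all rows, 6.42% were called higher and 6.21% lower from LowAhR to LowAhR+AD, and 12.3% higher in LowAhR+AD against Cont. All 7 activated keratinocyte markers rose from LowAhR to LowAhR+AD, with summed levels of 171 to 719 CPM in LowAhR and 11519 to 31778 CPM in LowAhR+AD. The 8 skeletal muscle markers were all called lower (6652 to 19798 CPM against 414 to 3325 CPM). Of the 10 adipocyte markers, 7 were called lower and 0 had a positive change. Of 8 tested sebaceous gland markers, 3 were called lower and 3 had a positive change (sums of 2723 to 5690 CPM against 1184 to 1778 CPM). The hair follicle markers summed to 26.1 to 930 CPM in Cont, 99.2 to 9039 in LowAhR, 6490 to 22305 in LowAhR+AD and 5762 to 16017 in LowAhR+AD+BJ. Of these 12 markers, 11 were called higher in LowAhR+AD than in Cont. From LowAhR to LowAhR+AD only Hoxc13 was called, higher, and the median log2 fold change of the 12 was 2.03. In LowAhR against Cont it was 3.24, with all 12 higher and 0 called. LowAhR replicate 4, the lowest of its group in Cyp2f2, Cyp2j6, Cyp2j9 and Cyp2b10, had the highest hair follicle sum of its group, but replicate 1, the highest of the group in Cyp2f2, Cyp2j6 and Cyp2b10, had the next highest at 3150 CPM. Of the 3 tested neutrophil markers 2 were called higher. The listed neutrophil markers summed to 5.97 to 13.7 CPM in LowAhR and 15.5 to 76.5 CPM in LowAhR+AD. Of the 6 macrophage markers 0 were called. The part of these compartments in the CYP2 levels was not tested.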

How the data were processed

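The authors deposited raw read counts per gene symbol, 1 table per library, made from QuantSeq 3' libraries of total RNA sequenced from a single end. The submitters' processing notes name Bowtie2, bedtools and mm10 (GRCm38), and no version, strand setting, treatment of multiply mapped reads or molecular identifiers is given in the sources used here. The tests used edgeR 4.0.16 under R 4.3.3. The function filterByExpr (minimum count 10, minimum total 15) kept 14854 rows with 99.9% of the counts, TMM scaling was applied, and glmQLFit and glmQLFTest were run on all 16 libraries in 1 model. A gene was called at an adjusted p under 0.05 over all tested rows. For single genes, exact permutation (two-sided, on log2 CPM with a prior count of 2) was also used, whose smallest p with 4 against 4 is 0.0286. The script was tested on simulated data.

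Alternatives were DESeq2 1.42.0, RLE size factors, no filter, at least 10 counts in every library, only the 2 groups compared, library sizes summed without the markers of muscle, hair follicle, fat and sebaceous gland, the replicate number as a block, and each library left out. Replicates are separate mice per the labels and methods, and differed by more than sampling noise (chi-square per degree of freedom 16.4 to 285). The groups come from the labels. Positions are from GENCODE M21 for 46 genes and by RefSeq synonym for 2. By rule every member that passed the filter is named with its level in each group, those called or not overlapping in a comparison with every library, and the others by their detection; genes that are no member are named only from fixed lists. The members and lists were chosen with earlier results of these data known. Figures were drawn with matplotlib 3.10.9.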

Additional observations from a re-analysis of the deposited data

Results flagged for a closer look

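There were 63 sets of 4 libraries (1 tested gene in 1 group) with values that could be compared. In 9 sets the gap from the highest or lowest library to the next, as a share of the range, exceeded Dixon's 95% critical value. Chance gives about 1 in 20 for normally distributed values. CPM values need not be normal, least of all near 0, and the sets share libraries. The 9 therefore cannot be set against that rate. Cyp2e1 stood out in replicate 3 of both groups with DNCB: it was at 37.8 CPM in LowAhR+AD replicate 3, against 0.0763 to 3.45 CPM in the others, and at 37.6 CPM in LowAhR+AD+BJ replicate 3, against 1.55 to 4.94 CPM. Cyp2g1 was at 125 CPM in LowAhR+AD replicate 3, against 20.3 to 29.6 CPM, and at 7.94 CPM in LowAhR replicate 2, against 0 to 1.22 CPM. Cyp2r1 was lowest in Cont replicate 2, at 1.29 CPM against 3.70 to 3.72 CPM, and highest in LowAhR+AD+BJ replicate 1, at 7.76 CPM against 0.856 to 1.71 CPM. The other 3 were genes of few counts: Cyp2b9 at 1.31 CPM in LowAhR+AD replicate 2, against 0 to 0.155 CPM, Cyp2t4 at 0.835 CPM in LowAhR replicate 4, against 0 in the other LowAhR libraries, and Cyp2t4 at 1.17 CPM in LowAhR+AD+BJ replicate 3, against 0 to 0.0913 CPM.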

How the results depend on the processing

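Of the single-gene results under the alternatives that left out no library, 474 kept direction and side of the threshold, 14 passed it newly, 3 lost it and 6 changed sign. The number of CYP2 genes called between LowAhR and Cont was 1 in place of 0 with DESeq2 (3.32% of all rows called) and with only the 2 groups compared (1.84%), Cyp2b19 in both. Between LowAhR+AD and LowAhR it was 3 in place of 5 with at least 10 counts in every library, where 7 members could be tested (19.6% of rows called), 3 with only the 2 groups (11 members tested, 5.49%), and 6 with DESeq2, which added Cyp2b10 (18%). Against Cont DESeq2 called 7 in place of 6, adding Cyp2e1 (26.2%). In that comparison Cyp2b10 was not called with only the 2 groups (edgeR adjusted p = 0.0928, 17% of rows called). Cyp2e1 was called there with no filter on low counts (edgeR adjusted p = 0.0495, 15.9% of rows). After BJIKT the number of CYP2 genes called was 1 in place of 0 with DESeq2 (0.114%). Between LowAhR+AD+BJ and LowAhR it was 3 in place of 1 with DESeq2 (11.2%) and 2 with only the 2 groups (8.66%), and ranged from 0 to 4 on leaving out single libraries: 0 without LowAhR replicate 1 or LowAhR+AD+BJ replicate 4 (3.97% and 3.01% of rows called), and 4 without LowAhR replicate 4 or LowAhR+AD+BJ replicate 3 (6.96% and 9.75%). The causes were not tested.

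The replicate numbers have no stated meaning, and pairing by number was not established. Of 24 correlations between same-numbered libraries, 3 were over 0.1 (-0.0547 to 0.167), the largest between replicate 3 of both groups with DNCB. Of 16 libraries, 7 lay closest to a library of their own number, and how many chance gives was not worked out. Whether same-numbered libraries share a batch was not tested. With the number as a replicate block, 2 genes were called between LowAhR+AD+BJ and LowAhR, Cyp2e1 and Cyp2g1 (6.38% of rows). Under the block Cyp2e1 also passed against LowAhR and Cont in LowAhR+AD (log2 fold changes -4.27 and -4.50), Cyp2b19 passed in LowAhR+AD against Cont (-1.14) and Cyp2b10 did not (-1.57). Changes of sign under the block were those of Cyp2b13 in LowAhR against Cont (0.25 in place of -0.25) and, in LowAhR+AD+BJ against LowAhR, of Cyp2t4 (-1.12 in place of 0.57) and Cyp2b23 (-0.017 in place of 0.019). Cyp2b23 there was also -0.0079 with DESeq2, -0.0074 with RLE size factors and -0.0029 with only the 2 groups.

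With 1 library left out, 566 single-gene results kept direction and side, 10 passed newly, 12 lost the call and 45 changed sign. Those that changed sign ranged, as log2 fold changes, in LowAhR against Cont from -0.45 to 0.13 for Cyp2b10, -0.75 to 0.41 for Cyp2b13, -0.25 to 0.42 for Cyp2b23, -0.23 to 0.14 for Cyp2d22, -0.16 to 0.42 for Cyp2j6, -0.60 to 0.013 for Cyp2j9 and -0.20 to 0.79 for Cyp2s1. In LowAhR+AD the range was -0.44 to 0.58 for Cyp2b19 against LowAhR and -0.12 to 1.87 for Cyp2t4 against Cont. After BJIKT it was -1.33 to 0.91 for Cyp2b9, -0.55 to 0.46 for Cyp2b19, -0.64 to 0.87 for Cyp2g1 and -1.91 to 2.67 for Cyp2e1. In LowAhR+AD+BJ against LowAhR it was -0.25 to 0.92 for Cyp2j8, -0.18 to 0.28 for Cyp2s1, -0.69 to 0.23 for Cyp2b13, -0.23 to 0.28 for Cyp2b23 and -0.11 to 0.16 for Cyp2b19. The main model called none of these. Depth limits the 20 untested members and Cyp2b9, Cyp2b13, Cyp2j8, Cyp2r1 and Cyp2t4, which had at most 85 counts in a library.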
